A study of Mus musculus with 26 samples.

Results

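ATAC-seq reads where a transposase can cut DNA, so a called peak marks a stretch of open chromatin. The regions described here are the 2092 open-chromatin peaks of wild-type (WT) mouse frontal cortex that shared no base with any peak of Adnp-mutant cortex. They were chosen by comparing 2 deposited lists, of 19272 WT peaks and 30862 peaks of heterozygous (HET) mice, and are called WT-only peaks below. They made up 10.86% of the WT list. The other 17180 WT peaks touched a HET peak and are called shared, and 13618 HET peaks (44.13% of the HET list) touched no WT peak.

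HET mice carried a frameshift in 1 copy of Adnp, and WT mice carried 2 intact copies. The series gives adolescent littermates for RNA-seq, with 7 HET and 7 WT libraries of frontal cortex. For ATAC-seq it labels 3 HET and 3 WT samples of the same tissue, made from frozen cortical nuclei, and the protocol speaks of n = 2. Each genotype has 1 pooled peak list, so the peaks have no replicates and no peak difference could be tested. The labels and protocols do not say which libraries each list pools. The names of the lists read WT1 and WT3 for WT, and MT1 and HET3 for HET, which points to 2 libraries per genotype. Whether these numbers are those of the labelled samples is not stated.

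Open chromatin marks promoters, where transcription starts, and enhancers, which lie within or between genes and can act over long distances. ADNP is a zinc-finger and homeodomain protein that binds DNA together with the remodeller CHD4 and HP1 proteins in the ChAHP complex, which is known for keeping chromatin closed. Promoters of widely used genes are often rich in CG dinucleotides and stay open in most tissues, whereas enhancers are open in fewer cell types.

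The lists hold positions only, with no height, fold or q value, so the strength of a peak was not known. Absence from the HET list therefore means that no peak was called there, and the level of openness in HET was not measured. RNA was not used to choose the peaks and was tested across all genes with edgeR. RNA libraries held 32814841 to 48291175 counts. Adnp itself had 5.67 to 7.84 CPM (counts scaled to library size) in WT, with a median of 6.19, and 5.34 to 8.68 in HET, with a median of 6.43, and the groups overlapped. Exon counts do not separate the frameshift copy from the intact one, so this level is no check of the labels. In bulk tissue, fewer cells of a type and less RNA per cell cannot be told apart. The 7 excitatory neuron markers summed to 2786 to 8337 CPM in WT and 945 to 6387 in HET. Summed striatal markers ran from 136.5 to 1149 and from 87.7 to 1721 CPM, and thalamic markers from 125.5 to 555.6 and from 149.2 to 1583. The part of these other cell types in the RNA results was not tested. Camk2a, an excitatory neuron kinase, was at 1748 CPM in WT replicate 4, the lowest of the WT libraries, and at 3423 in HET replicate 6, the highest of the HET libraries.

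Sequences under WT-only peaks are shown for the promoters that the peaks covered most broadly. RefSeq promoter windows of 300 bases (250 before a transcription start and 50 after it, build GRCm38.p6) lay wholly inside WT-only peaks in 49 cases, from 46 genes. The 250 bases before the start are printed for the 6 genes with the widest such peaks, predicted genes left out, and for Sstr2, which with Neurl1a held the cyclic AMP response element TGACGTCA. Capitals mark that element, the GC box GGGCGG and the CCAAT box, each on either strand and with no overlap between them.
Plpp6: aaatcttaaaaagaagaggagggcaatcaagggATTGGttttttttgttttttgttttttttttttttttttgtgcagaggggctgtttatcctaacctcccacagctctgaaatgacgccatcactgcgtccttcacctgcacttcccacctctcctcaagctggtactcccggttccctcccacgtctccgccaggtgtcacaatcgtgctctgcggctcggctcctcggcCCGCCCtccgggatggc
Sdc1: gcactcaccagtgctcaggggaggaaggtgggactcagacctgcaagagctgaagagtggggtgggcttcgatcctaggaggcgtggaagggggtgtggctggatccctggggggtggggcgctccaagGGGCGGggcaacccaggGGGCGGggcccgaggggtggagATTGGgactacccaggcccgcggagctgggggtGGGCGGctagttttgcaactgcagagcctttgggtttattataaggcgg
Mid2: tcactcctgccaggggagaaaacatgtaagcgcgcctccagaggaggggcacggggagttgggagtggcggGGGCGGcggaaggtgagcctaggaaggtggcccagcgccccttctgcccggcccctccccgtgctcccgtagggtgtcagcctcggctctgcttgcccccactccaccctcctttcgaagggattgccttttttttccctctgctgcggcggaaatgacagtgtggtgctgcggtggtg
Wnt7a: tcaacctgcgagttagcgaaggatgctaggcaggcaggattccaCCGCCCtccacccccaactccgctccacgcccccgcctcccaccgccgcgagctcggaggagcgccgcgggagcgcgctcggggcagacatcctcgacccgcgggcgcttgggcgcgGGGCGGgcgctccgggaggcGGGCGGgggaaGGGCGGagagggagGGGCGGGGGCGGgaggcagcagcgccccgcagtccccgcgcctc
Sox2: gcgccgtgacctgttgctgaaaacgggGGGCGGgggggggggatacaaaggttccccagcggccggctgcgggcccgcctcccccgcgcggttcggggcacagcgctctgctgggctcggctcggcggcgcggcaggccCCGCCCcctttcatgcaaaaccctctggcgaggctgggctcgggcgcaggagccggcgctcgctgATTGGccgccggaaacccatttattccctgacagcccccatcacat
Neurl1a: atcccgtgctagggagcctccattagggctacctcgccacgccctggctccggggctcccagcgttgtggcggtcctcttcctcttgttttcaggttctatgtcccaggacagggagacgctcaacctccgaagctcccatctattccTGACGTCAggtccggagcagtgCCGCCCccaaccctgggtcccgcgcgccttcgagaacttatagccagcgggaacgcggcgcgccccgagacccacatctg
Sstr2: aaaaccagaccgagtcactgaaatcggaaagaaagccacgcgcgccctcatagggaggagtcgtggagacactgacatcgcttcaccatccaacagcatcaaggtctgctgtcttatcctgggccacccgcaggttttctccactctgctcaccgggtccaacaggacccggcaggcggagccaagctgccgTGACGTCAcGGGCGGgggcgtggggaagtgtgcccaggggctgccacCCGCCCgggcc
The Plpp6 stretch (chr19:28963670-28963919, plus strand) lay in a peak of 1048 bp, the widest WT-only promoter peak, 11123 bp from the nearest HET peak. The predicted gene Gm4755 starts on the other strand under the same peak as Sdc1. The Sdc1 stretch (chr12:8771146-8771395, plus strand) lay in a peak of 849 bp and the Mid2 stretch (chrX:140664706-140664955, plus strand) in a peak of 835 bp, 82159 and 99194 bp from a HET peak. The Wnt7a stretch (chr6:91411354-91411603, minus strand) had a peak of 749 bp and held 6 GC boxes and 34 CG dinucleotides in 250 bases. Sox2 (chr3:34649745-34649994, plus strand) had a peak of 739 bp and 27 CG dinucleotides. Neurl1a (chr19:47178570-47178819, plus strand) and Sstr2 (chr11:113619077-113619326, plus strand) had peaks of 738 and 664 bp.

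These genes differ in what they do. Plpp6 is a lipid phosphatase, Sdc1 the cell-surface proteoglycan syndecan 1, Mid2 a microtubule-associated ubiquitin ligase and Neurl1a another ubiquitin ligase. Wnt7a is a secreted Wnt ligand, Sox2 a transcription factor of neural progenitors and Sstr2 a somatostatin receptor. Sox2 RNA ran from 34.9 to 54.3 CPM in WT and from 39.2 to 56.4 in HET, and Wnt7a RNA from 9.10 to 21.3 and from 13.3 to 19.3. Both genes thus overlapped between genotypes although their promoter peak was in the WT list alone, and neither passed the test (adjusted p = 0.571 and 0.310, edgeR). Sdc1 was low, at 0.879 to 2.09 CPM in WT and 1.88 to 3.07 in HET (log2 fold change 0.63, adjusted p = 0.0912).

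Over the 49 windows under WT-only peaks the median GC content was 62.67%, and the median ratio of observed to expected CG dinucleotides was 0.740. That ratio was 0.846 over 5345 windows under shared WT peaks, 0.769 over 275 windows under HET-only peaks and 0.232 over 21310 windows under no peak. The GC box GGGCGG stood in 63.27% of windows under WT-only peaks and in 62.91% under HET-only peaks. It stood in 75.29% under shared peaks and in 35.66% of all 32851 windows. CCAAT stood in 38.78% against 37.41% of all windows, and the ETS-type letters CCGGAAG in 12.24% against 22.3% under shared peaks and 8.858% of all windows. TGACGTCA stood in 2 of the 49 windows (4.082%) and in 1.79% of all. The TATA letters TATAAA stood in 8.163% of windows under WT-only peaks and in 13.62% of all. These letters were searched on both strands, and a match is no evidence of binding.

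WT-only peaks were narrow. Their median width was 329 bp against 521 bp for shared WT peaks and 285 bp for HET-only peaks. The share of WT-only peaks among WT peaks was smaller in each wider class of the list, from 31.39% of peaks of 139 to 293 bp to 0.2584% of those from 863 bp up. Only 179 WT-only peaks (8.556%) reached 500 bp, against 53.36% of shared WT peaks. The same slope held in the HET list, where 82.19% of the narrowest and 2.225% of the widest peaks had no WT partner. A wider peak has more bases that can touch another peak, so width is not independent of the rule that chose the set.

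Position differed as well. A peak was put at a promoter when it lay within 1000 bp of an annotated 5′ end, otherwise in a gene body or between genes. Of the WT-only peaks 422 (20.17%, exact 95% interval 18.47 to 21.96%) were at promoters, 932 (44.55%) in gene bodies and 738 (35.28%) intergenic. Shared WT peaks had 52.55% at promoters, 29.02% in gene bodies and 18.43% intergenic, so WT-only peaks resembled HET-only peaks (14.41%, 50.32% and 35.26%) more than shared ones. These intervals cover counting error only.

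**Figure D1:**
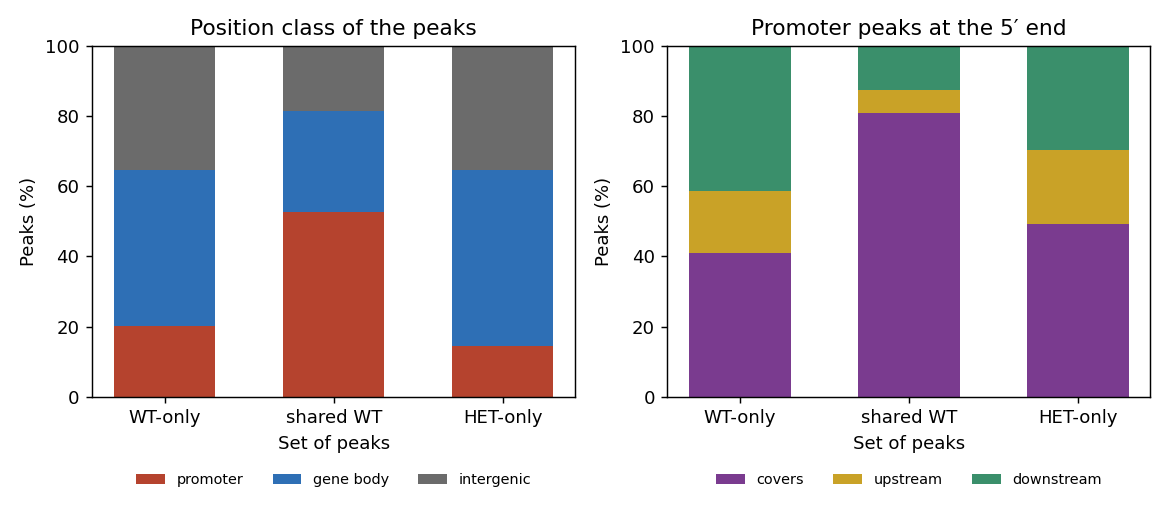
The left bars give the percent of WT-only, shared WT and HET-only peaks at promoters, in gene bodies and between genes, and the right bars the percent of promoter peaks that cover a 5′ end or lie upstream or downstream of it. Promoters take 20.17% of WT-only and 52.55% of shared WT peaks, and 41.0% and 80.97% of their promoter peaks cover the 5′ end.

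The classes were also set side by side at matched width. Among WT peaks of 300 to 349 bp, 17.3% of promoter peaks had no HET partner, against 25.83% in gene bodies and 27.75% between genes. At 400 to 499 bp these shares were 6.35%, 11.6% and 10.83%. From 500 bp to below 700 bp they were 1.659%, 5.56% and 4.891%. In each of these ranges the promoter share was the lowest, with no test.

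**Figure D2:**
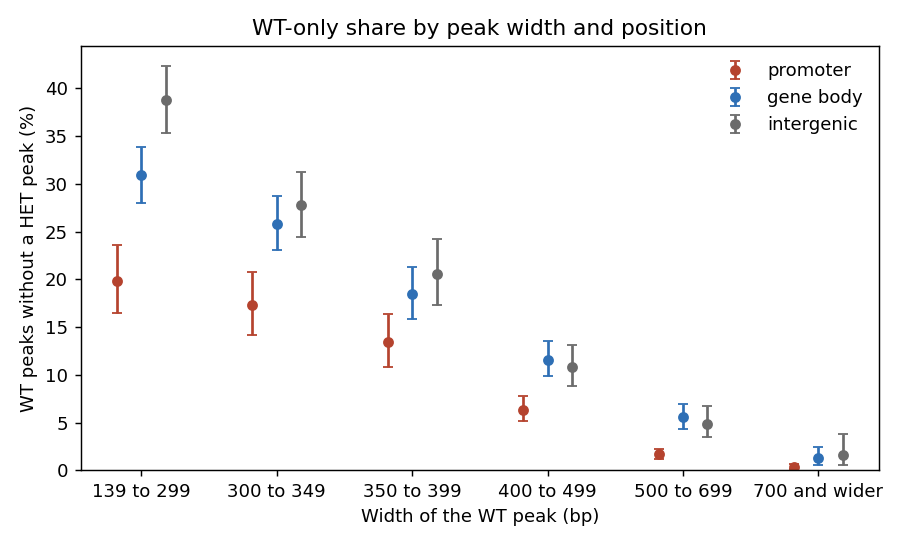
Each point is the percent of WT peaks of one width range (x axis, bp) and position class that touch no HET peak, with the exact 95% interval over peaks. The share falls with width in every class, and promoter peaks (red) have the lowest share in each range, 19.88% in the narrowest against 30.91% in gene bodies and 38.8% between genes.

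Promoter peaks were next placed against the 5′ end. Of the 422 WT-only ones, 173 (41.0%) covered the nearest 5′ end, 75 (17.77%) lay upstream of it and 174 (41.23%) downstream, whereas 80.97% of shared WT and 49.26% of HET-only promoter peaks covered it. In gene bodies 181 of 932 WT-only peaks (19.42%) touched an exon, against 30.63% of shared and 16.42% of HET-only gene-body peaks. Intergenic WT-only peaks lay a median of 22954 bp from the nearest 5′ end, and 192 of 738 (26.02%) were more than 50 kb away. None of these differences between sets of peaks could be tested. The share of WT peaks that were WT-only ran from 8.831% on chromosome 17 to 13.98% on chromosome 1 and was 11.34% on X. On Y it was 7 of 15 peaks (46.67%, interval 21.27 to 73.41%).

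WT-only peaks were next placed against the HET list, from which overlapping peaks are left out by the rule. The median distance to the nearest HET peak was 18336 bp, with 10538 bp at promoters, 17276 bp in gene bodies and 27074 bp between genes. HET-only peaks lay farther from the other list, at a median of 31918 bp from the nearest peak of the shorter WT list. Within 1000 bp of a HET peak lay 214 WT-only peaks (10.23%), and in 122 of these cases the nearest HET peak was itself absent from the WT list. Within 100 bp lay 58, and there the neighbour was a HET-only peak in 49 cases. Of all HET peaks 44.13% were HET-only. A shared neighbour has to touch another WT peak, so at short distances the rule itself favours a HET-only neighbour.

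**Figure D3:**
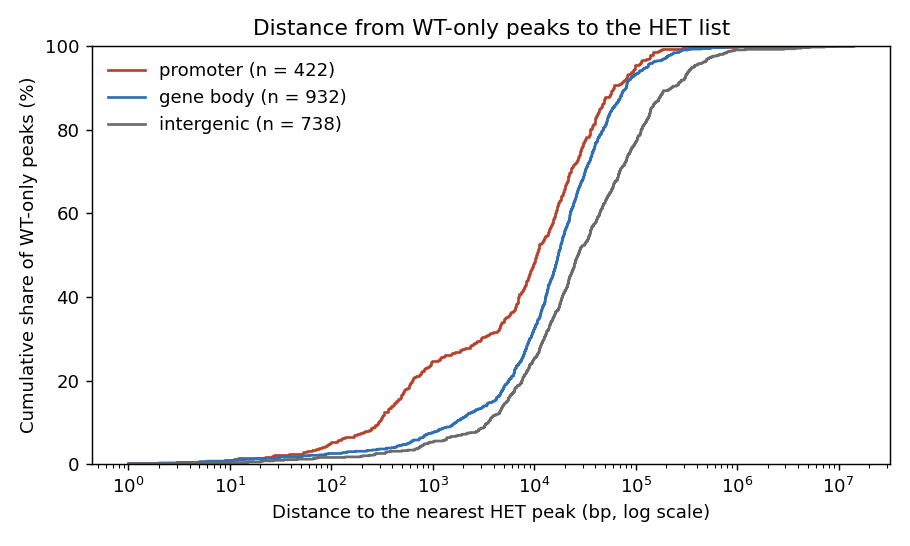
The lines give the cumulative percent of WT-only peaks (y axis) by distance to the nearest HET peak in bp (log scale) for promoter, gene-body and intergenic peaks. Promoter peaks lie nearest, with a median of 10538 bp, and intergenic peaks farthest, with 27074 bp.

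The boundary of the set is a matter of single bases. Just outside it, a peak of 280 bp in Schip1 shared 1 bp with a HET peak, and 16 WT peaks shared 10 bp or fewer. Just inside it, peaks near Ttc39b, in Mdga2 and in P2rx7 lay 1 bp from a HET peak, and 15 WT-only peaks lay within 10 bp of one. A further 1047 WT peaks had under 50% of their width under their best HET peak and still count as shared.

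Promoter genes were also described by RNA level, and those named in this paragraph were picked for a high WT level. Of the 496 genes with a WT-only peak in their promoter window, 372 had no HET peak in the same window and 124 had one beside it. The RNA level of tested genes without a HET peak was 3.331 CPM per kb of exon at the median in WT, against 8.554 beside a HET peak. It was 6.191 for windows with a shared peak, 3.401 for those with a HET-only peak and 0.8548 for those with no peak. Over all genes tested this median was 3.466. Cplx2, a complexin that controls vesicle release, had a peak of 490 bp over its 5′ end and 1242 to 1685 CPM in WT against 402 to 1807 in HET (adjusted p = 0.549, edgeR). Actg1, cytoplasmic gamma actin, and Ppp3r1, the regulatory subunit of calcineurin, had WT-only peaks 127 and 456 bp from a HET peak.

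Few promoter genes passed the RNA test. Of the 387 promoter genes tested, 1 rose and 0 fell at an adjusted p under 0.05 (edgeR), which is 0.258% beside 0.97% of all 18050 genes (0.587% higher and 0.382% lower). An unadjusted p under 0.05 was found for 98 of the 387 (25.3%) beside 22.2% of all genes. At an adjusted p under 0.1 the promoter genes gave 9 higher and 23 lower (8.27%), beside 6.62% of all genes (3.51% higher and 3.11% lower). The median log2 fold change of the 387 was -0.02 against 0.02 over all genes. Among the 275 tested genes whose window had no HET peak at all, 142 fold changes were positive and 133 negative, and none was called (70 had an unadjusted p under 0.05). Fold changes of these 275 genes thus lay on both sides of 0 in similar numbers. Of the 112 tested genes with a HET peak in the same window, 43 had positive and 69 negative fold changes. Over all genes tested 9619 were positive and 8431 negative.

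The promoter gene that rose was Neat1, the long noncoding RNA that scaffolds paraspeckles. Its WT-only peak (chr19:5845648-5845957, 310 bp) lay 170 bp upstream of its 5′ end, and a HET peak followed 38 bp away. Neat1 RNA was 42.2 CPM at the lowest, 50.4 at the median and 70.6 at the highest in WT, and 59.2, 87.35 and 96.6 in HET. In HET 5 of 7 libraries were above every WT library. The means were 53.9 ± 9.8 and 81.2 ± 13.9 CPM (SD, n = 7 each; log2 fold change 0.59, SE 0.13, adjusted p = 0.0466, edgeR).

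Promoter genes with no HET peak in their window were followed by their RNA p. Mid2 had 26.9, 29.5 and 40.9 CPM (lowest, median, highest) in WT and 36.2, 42.3 and 45.9 in HET, with 4 HET libraries above every WT library (log2 fold change 0.40, adjusted p = 0.0525). Morc4, an X-linked ATPase with a histone-reading zinc finger, had 3.36, 4.14 and 5.41 CPM in WT and 5.48, 5.84 and 6.51 in HET (0.48, adjusted p = 0.0525). The Morc4 groups did not overlap, which held for 1 promoter gene above and 1 below, beside 0.432% and 0.283% of all genes. The gene below was Mmgt2, a membrane magnesium transporter, with 12.3 to 14.3 CPM in WT and 9.06 to 12.2 in HET (adjusted p = 0.0763). Mmgt2 and its divergent neighbour Lrrc75a shared 1 WT-only peak of 411 bp (chr11:62648733-62649143) and both had lower means in HET. Lrrc75a had 10.5 to 19.8 CPM in WT and 6.46 to 13.0 in HET (log2 fold change -0.66, adjusted p = 0.0630). None of these 4 passed the threshold.

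Wwc1, which encodes the memory-linked scaffold KIBRA, and Dmtn, the actin-bundling protein dematin, had lower means in HET, at 94.7 ± 8.93 against 134.9 ± 30.4 CPM and 287 ± 42.5 against 388.6 ± 64.2 (SD, n = 7; adjusted p = 0.0619 and 0.0716). Cobll1 and the kinesin gene Kif26b had higher means, at 16.0 ± 2.68 against 11.6 ± 1.56 and 29.1 ± 9.14 against 16.8 ± 4.11 CPM (SD, n = 7; adjusted p = 0.0623 and 0.0683). All 4 overlapped between genotypes and none was called.

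Large negative fold changes that missed the threshold were found for Dkk3, Tcap, Nr4a1 and Cck. Dkk3, a secreted member of the dickkopf family, had 88.8, 331.3 and 537.5 CPM (lowest, median, highest) in WT and 39.8, 150.9 and 189.8 in HET. Nr4a1, an activity-induced nuclear receptor, had 88.0, 123.8 and 278.6 CPM in WT and 15.6, 72.2 and 99.65 in HET. Cck, the neuropeptide cholecystokinin, had 89.1, 317.3 and 495.9 CPM in WT and 89.4, 146.5 and 256.7 in HET. For these 3 genes the groups overlapped, and their log2 fold changes of -1.36, -1.19 and -1.12 missed the threshold (adjusted p = 0.0864, 0.0953 and 0.0798, edgeR). Tcap, which encodes a titin-binding protein, was low, at 0.454 to 3.98 CPM in WT and 0.129 to 2.78 in HET (log2 fold change -1.26, adjusted p = 0.209). The peaks of Dkk3, Nr4a1 and Cck lay 7058, 7152 and 10509 bp from a HET peak. WT replicate 4, the WT library lowest in Camk2a, was also the lowest WT library for Dkk3 and Cck. With the excitatory marker mean in the fit, the log2 fold changes of Dkk3, Tcap, Nr4a1 and Cck were -0.22, 0.05, -0.77 and -0.42.

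Large positive fold changes that missed the threshold were found for Itih3, a matrix-associated inter-alpha-trypsin inhibitor chain, and Unc13c, a vesicle priming factor. Itih3 had a peak of 488 bp over its 5′ end, and its RNA spread from 17.6 to 124.6 CPM in WT and from 50.4 to 223.2 in HET (log2 fold change 1.09, adjusted p = 0.195). Unc13c spread from 28.5 to 113.3 CPM in WT and from 44.9 to 141.1 in HET (0.90, adjusted p = 0.148). The genotypes overlapped for both genes, and neither was called. With the excitatory marker mean, itself not independent of genotype, in the fit, their log2 fold changes were 0.05 and 0.50.

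**Figure D4:**
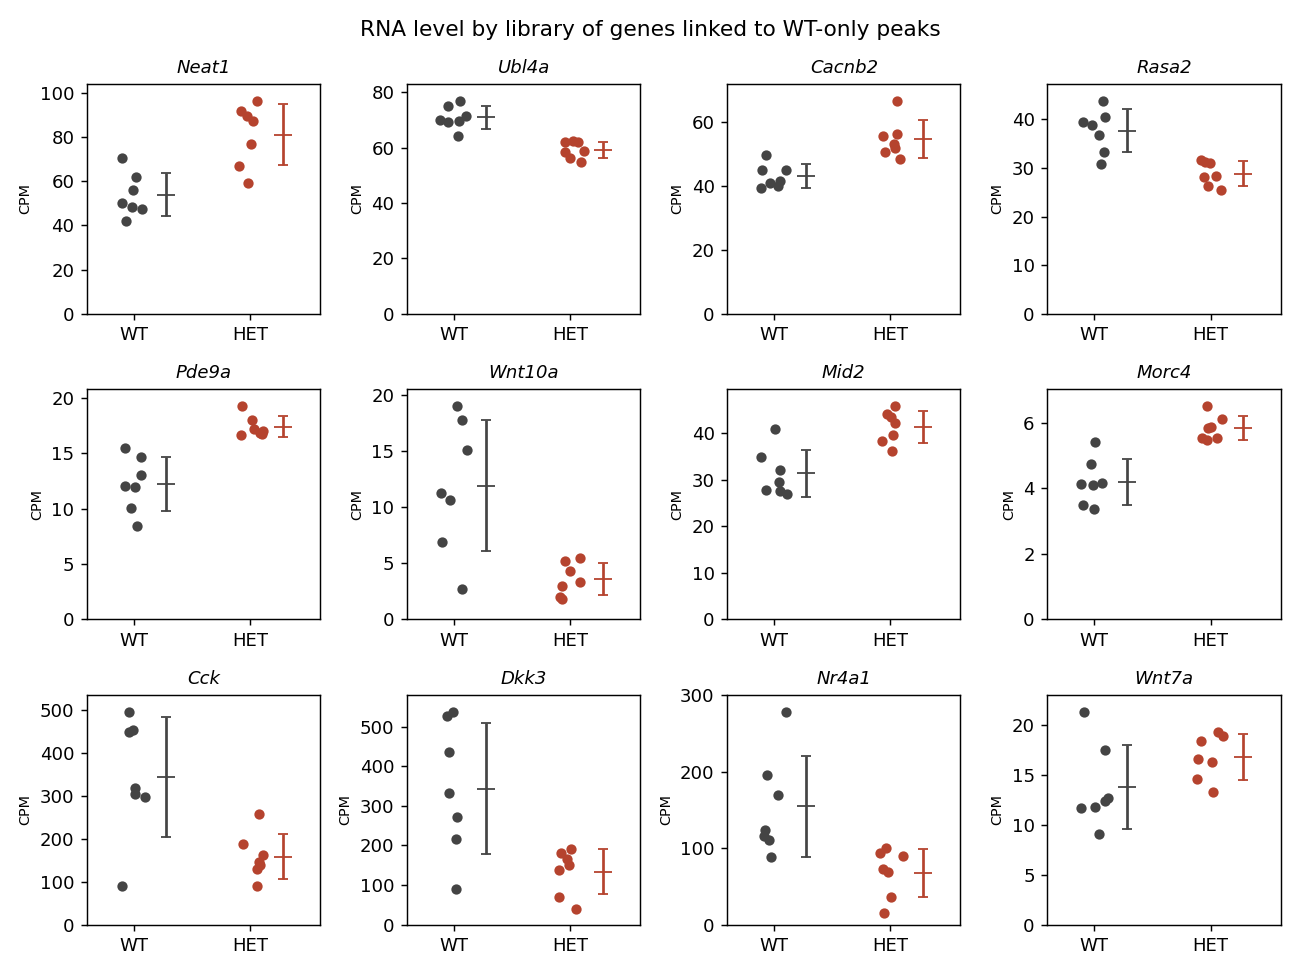
Each point is the RNA level (CPM) of 1 library, WT in dark grey and HET in red, for 12 genes linked to WT-only peaks, with the mean and SD (n = 7) beside the points. Morc4, Pde9a and Ubl4a do not overlap between genotypes, whereas Cck, Dkk3 and Wnt7a do.

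Gene-body peaks fell mostly in long genes. The 932 peaks lay in 873 genes, with a median span of 108727 bp against 67038 bp for genes with a shared gene-body peak. Of the 873 genes, 485 (55.56%) also held a HET-only gene-body peak, against 43.92% of genes with a shared one, and a longer gene can hold more peaks of any kind. Counting promoters and gene bodies together, 384 of 1348 genes (28.49%) had a WT-only peak and no HET peak linked to them. A peak at a promoter was linked to the genes starting there alone, so a HET peak inside another gene can go uncounted. The like share for genes with a HET-only peak and no WT peak was not computed, so this count has no background.

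A few genes held several. Bcor, the X-linked BCL6 corepressor, had 6 WT-only peaks between chrX:12080313-12159846, no shared peak and 1 HET-only peak. They were 185 to 703 bp wide and lay 2810 to 82159 bp from a HET peak. Bcor RNA was 29.9, 43.4 and 58.5 CPM in WT and 32.3, 34.3 and 42.3 in HET, which overlapped (log2 fold change -0.26, adjusted p = 0.200). The cell adhesion gene Prtg, the peptidase gene Cpa6 and the nuclear body gene Sp140 had 3 WT-only peaks each and no shared peak. Kalrn, a guanine nucleotide exchange factor of dendritic spines, had 4 WT-only, 11 shared and 8 HET-only peaks, and Adcy2, an adenylyl cyclase, had 4 of each kind. Adcy2 RNA was 112.2 to 205.4 CPM in WT and 84.7 to 127.4 in HET (log2 fold change -0.54, adjusted p = 0.0591). Rbfox1, a neuronal splicing factor, had 3 WT-only peaks beside 7 shared ones, and its RNA had an adjusted p of 0.335.

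On chromosome 11, 6 WT-only peaks lay within 3128358 to 3196679 at Sfi1 and at pseudogenes that include Pisd-ps1 and Fau-ps2. Whether reads map uniquely there was not tested. A second group on that chromosome (98329743 to 98412775) put WT-only peaks at the promoters of the neuronal factor Neurod2, of Tcap and of the receptor gene Erbb2, and 1 between genes near Ppp1r1b. Within 50 kb of one another, 1809 WT-only peaks stood alone, 112 pairs formed, and 17 groups had 3 or more.

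Of 728 gene-body genes tested, 1 rose and 1 fell (0.275%), beside 0.97% of all genes (0.587% higher and 0.382% lower). Cacnb2, a beta subunit of voltage-gated calcium channels, had a WT-only peak of 170 bp at an exon (chr2:14873944-14874113), 270856 bp into the gene. Its RNA was 39.4, 41.6 and 49.8 CPM in WT and 48.4, 53.0 and 66.7 in HET, with 6 HET libraries above every WT library (log2 fold change 0.34, SE 0.07, adjusted p = 0.0461). Ubl4a, a ubiquitin-like protein in the delivery of membrane proteins, had a peak of 673 bp over an exon (chrX:74368155-74368827), and its promoter window held a HET-only peak. Its RNA was 64.0, 70.1 and 76.9 CPM in WT and 54.7, 58.6 and 62.2 in HET. Every HET library was below every WT library (log2 fold change -0.26, SE 0.05, adjusted p = 0.0354). Such a separation was found for 1 of the 728 genes, beside 0.283% of all genes. Counting ignored strand, so reads of overlapping genes on the other strand cannot be told apart from those of these genes.

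Adnp held a WT-only peak of 337 bp in its gene body (chr2:168205267-168205603), 1509 bp from the nearest 5′ end and 626 bp from a HET peak, and its promoter had a shared peak.

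Intergenic peaks were linked to the gene with the nearest 5′ end, which gave 707 genes, of which 193 were tested. Of these 2 rose and 2 fell (2.07%), beside 0.97% of all genes. Pde9a, which degrades cyclic GMP, lay 7700 bp from its peak (chr17:31378183-31378510). A HET-only peak stood in its promoter window. Its RNA was 8.41, 12.1 and 15.5 CPM in WT and 16.7, 17.0 and 19.25 in HET, with no overlap (log2 fold change 0.51, SE 0.11, adjusted p = 0.0481). All HET libraries were above all WT libraries for 2 of the 193 genes, beside 0.432% of all genes. Wnt10a, a Wnt ligand, had a peak 15327 bp downstream of its 5′ end (chr1:74806843-74807172) and 2.73, 11.2 and 19.0 CPM in WT against 1.77, 3.35 and 5.43 in HET. The lowest WT library, WT replicate 4, lay within the HET range (log2 fold change -1.73, SE 0.38, adjusted p = 0.0482). Rasa2, which switches off RAS, had a peak of 579 bp 28789 bp upstream (chr9:96660406-96660984) and 30.85, 38.8 and 43.9 CPM in WT against 25.4, 28.35 and 31.6 in HET (log2 fold change -0.38, SE 0.08, adjusted p = 0.0457). The fourth gene, the predicted gene Gm15707, was picked after its values were seen and stood at a mean of 0.163 CPM in WT and 0.695 in HET (2.07, adjusted p = 0.00193).

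**Figure D5:**
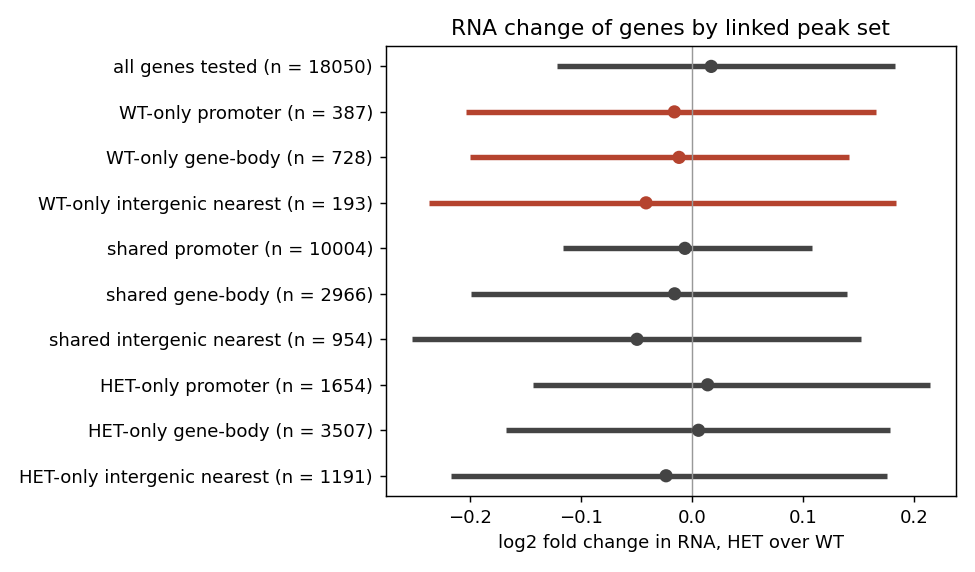
Points are the median and lines the middle 50% of log2 fold changes in RNA (HET over WT, x axis) of genes linked to each set of peaks, with the number of genes tested. The WT-only sets (red) have medians of -0.02, -0.01 and -0.04, beside 0.02 over all genes and -0.01, -0.02 and -0.05 for the shared sets.

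The call of Gm15707 was kept in all 14 fits that left out 1 library, with an adjusted p of 0.00303 to 0.00963. The other calls were close to the threshold and moved with single libraries. Each of the 6 named calls (Neat1, Cacnb2, Ubl4a, Pde9a, Wnt10a and Rasa2) was kept in 2 to 4 of the 14 fits that left out 1 library, always in those without WT replicate 4 and without HET replicate 6. Without WT replicate 4, 9.18% of all genes were called, 791 higher and 881 lower. The same fit called 47 promoter (12%), 106 gene-body (14.5%) and 22 intergenic nearest genes (11.4%), of which 34, 67 and 14 were lower. Without HET replicate 6, 6.09% of all genes were called, and 28 (7.16%), 55 (7.53%) and 14 (7.22%) of the linked ones. With the excitatory marker mean, itself not independent of genotype, in the fit, 0.072% of all genes were called. Gm15707 was the only linked gene among them. The 6 named genes then had adjusted p of 0.222 to 0.341, and Wnt10a a log2 fold change of -0.74.

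The study's title names Wnt signalling and the cytoskeleton. Of all 18050 genes tested for RNA, 1270 (7.04%) were linked to a WT-only peak, 2.14% at the promoter, 4.03% in the gene body and 1.07% as the nearest gene. Of the tested genes on each list, the linked share was 16.1% for Wnt ligands and receptors, 6.25% for the beta-catenin pathway, 16.3% for actin and 12.5% for microtubule genes. These shares are a description with no test and no matching for gene length. Among 32 Wnt ligands and receptors, Wnt7a had a WT-only promoter peak, and 4 others (Fzd8, Wnt1, Wnt10a and Wnt7b) were nearest to an intergenic one. Of 33 beta-catenin pathway genes, Dkk3 and the Dishevelled antagonist Nkd1 had promoter peaks. Nkd1 RNA was 16.9 to 23.5 CPM in WT and 15.1 to 36.8 in HET (adjusted p = 0.884). Of 49 actin genes, 5 had promoter peaks and 3 gene-body peaks. Among them Cfl1, the filament-severing cofilin, had 457.7, 499.9 and 541.1 CPM in WT and 406.4, 424.8 and 499.6 in HET, with 6 HET libraries below every WT library (log2 fold change -0.22, adjusted p = 0.0679). Of 48 microtubule genes, Clasp1, Dclk1, Mapre2, Mapt and Tubb3 had gene-body peaks, and the kinesin gene Kif5c was nearest to an intergenic one. Mapt, the microtubule-binding protein tau, was at 538.5 to 641.9 CPM in WT and 536.0 to 652.8 in HET. None of these genes other than Wnt10a passed the test.

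Of 28 excitatory synapse genes, 8 (28.6%) had a WT-only gene-body peak (Camk2a, Dlg2, Gria1, Gria2, Grin2b, Grm5 and Shank2 among them), beside 4.03% of all genes tested, and 0 had one at the promoter. Of 28 presynaptic genes, 5 (17.9%) had a gene-body peak and 2 (7.14%) a promoter peak, Cplx2 among the latter. A WT peak of any kind, at the promoter or in the gene body, was found for 27 excitatory synapse and 26 presynaptic genes. Gene length was not matched in these shares. Genes with a WT-only gene-body peak had a median span of 108727 bp, against 3289 bp over all genes in the count tables. Grin2b, an NMDA receptor subunit, was at 235.9, 409.5 and 625.7 CPM in WT and 186.2, 290.0 and 401.6 in HET (log2 fold change -0.48, adjusted p = 0.186). With the excitatory marker mean, itself not independent of genotype, in the fit, its log2 fold change was 0.00. Of 25 BAF remodeller subunits, 2 had gene-body peaks, and of 15 ChAHP and heterochromatin genes Setdb1, a histone methyltransferase, had a promoter peak of 147 bp. Setdb1 RNA was 38.4 to 45.0 CPM in WT and 38.35 to 47.4 in HET (adjusted p = 0.425).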

How the data were processed

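Per the labels' protocols, RNA came from frontal cortex (poly-A selection, paired reads of 150 bases) and ATAC-seq from frozen cortical nuclei cut with Tn5. Gene-level raw counts were deposited by the authors for RNA, made with featureCounts 2.0.1 over exons by gene ID, strand ignored, per the file headers. STAR, Trimmomatic and the build GRCm38.p6 are named in the submitters' processing notes, and for ATAC-seq Bowtie2 2.4.4, SAMtools 1.9, MACS3 and mm10. The deposited peak lists hold chromosome, start and end. No label or header states the caller settings or ATAC depth, and the PAT, Control and Hi-C samples were not analysed here.

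Peaks sharing at least 1 bp counted as shared. Gene models came from the count tables. Genes were kept with filterByExpr (18050 of 55487), normalised by TMM, and compared by genotype alone in edgeR 4.0.16 (robust quasi-likelihood test, two-sided). Adjusted p follow Benjamini and Hochberg across the genes kept. CPM values are TMM-scaled, and levels per kb use log2 with a pseudocount of 0.01. The edgeR step was checked on simulated counts and the overlap step on simulated intervals. Animals are separate per the labels, and the closest pair of libraries differed by 10.1 per degree of freedom in a chi-square comparison of counts. With the genotype mean of each gene taken off, the remaining deviations of same-numbered HET and WT libraries correlated at -0.284 to 0.334. The numbers were therefore not used as pairs. The peaks, gene lists and naming rule (widest, nearest and farthest peaks, called genes, highest and most changed promoter genes, genes with 3 or more peaks) were chosen with earlier results of these data known, and some genes the rule names are not reported here. Alternatives covered overlap rules, promoter windows, DESeq2 1.42.0, limma 3.58.1, filters, scaling, a block, a marker covariate and each library left out.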

Additional observations from a re-analysis of the deposited data

Results flagged for a closer look

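Among 146 groups of 7 libraries examined, 8 held a library far from the other 6, where chance gives about 1 in 20. HET replicate 6 stood apart for 5 of them. It had 790.2 CPM of Actg1 against 566.4 to 659.8 in the other HET libraries, 44.93 of Unc13c against 111.1 to 141.1, and 228.7 of Dpp10, a gene with 3 WT-only peaks, against 143.6 to 179.0. The same library had 499.6 CPM of Cfl1 against 406.4 to 445.0 and 530.3 of Nrxn2, a presynaptic adhesion gene, against 402.1 to 447.1. HET replicate 4 had 66.67 CPM of Cacnb2 against 48.4 to 56.11 and 36.84 of Nkd1 against 15.06 to 20.14. In WT, replicate 4 had 64.7 CPM of the dopamine receptor gene Drd2 against 1.626 to 28.8.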

How the results depend on the processing

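The number of WT-only peaks depended on the overlap rule. It was 3139 when under 50% of a WT peak under a HET peak also counted, 200 among WT peaks of at least the median width, and 4445 against the widest HET peaks in equal number to the WT list. The promoter share was 24.43%, 33.5% and 21.35% under these 3 rules, 17.96% with no HET peak within 500 bp, 23.47% and 16.73% with windows of 2000 and 500 bp, and 16.92% with tested genes alone. The gene-body share was 42.16% and 47.47% with those windows and 40.58% with tested genes, and the intergenic share 31.83%, 22% and 32.76% under the 3 rules and 42.5% with tested genes. Median width was 353, 569 and 336 bp, and median distance 6876, 16866.5 and 29450 bp, or 20444 bp with no HET peak within 500 bp.

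Calls depended on the test. DESeq2 called 1403 of 35384 genes, and 36 of 463 promoter, 73 of 839 gene-body and 20 of 422 intergenic nearest genes. For limma-voom these were 1886 of 18050, 54 of 387, 98 of 728 and 29 of 193. In both fits each linked set had a higher share called than all genes, with no test. The DESeq2 totals count every gene with any read, so its shares are not over like sets of genes. The main count filter passed 18050 of those 35384 genes, but 387 of the 463 promoter and 728 of the 839 gene-body genes. In the main edgeR fit the promoter and gene-body shares were lower than that of all genes (0.258% and 0.275% beside 0.97%), and the intergenic share was higher (2.07%). With no count filter the counts were 106, 0, 0 and 2, of as many genes as for DESeq2. Of as many genes as for limma-voom, the excitatory marker mean gave 13, 0, 0 and 1. An adjusted p under 0.1 gave 1195, 32, 56 and 17 of those same numbers. A filter at 1 CPM gave 210 of 14946 genes, with 3 of 354 promoter, 4 of 698 gene-body and 3 of 159 intergenic nearest genes. No HET peak within 500 bp gave 0 of 302 promoter genes. The replicate block gave 10 of all genes and 0, 0 and 0 linked ones. With genotype means taken off, 1 of 7 HET libraries correlated best with the WT library of its own number. A shared number was therefore not taken as a pairing. Leaving out 1 library gave 11 to 1672 genes in all, 0 to 47 at promoters, 0 to 106 in gene bodies and 1 to 22 nearest genes, with the highest counts without WT replicate 4 and high counts without HET replicate 6. The cause was not tested. Median fold changes moved to 0.005145, 0.03011 and 0.01811 with the marker mean, and leaving out 1 library gave -0.02528 to 0.002308 at promoters, -0.02306 to -0.007389 in gene bodies and -0.04951 to -0.01586 for nearest genes. DESeq2 and limma-voom kept all 7 linked genes called by edgeR. Peak depth and height are unknown, which limits every count of peaks.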
